A study of Homo sapiens with 5 samples.

Results

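Axon guidance ligands and receptors are secreted or membrane proteins that steer growing axons, and many of them also act on blood vessels, epithelia and migrating cells. Semaphorins signal through plexins, with neuropilins as co-receptors for the secreted class 3 members. SLIT proteins repel cells through ROBO receptors, netrins attract through DCC and repel through UNC5 receptors, and the EPH receptors are tyrosine kinases whose ephrin ligands sit on the neighbouring cell. The members were taken by gene symbol from the protein-coding genes of the hg19 annotation: the semaphorins of classes 3 to 7, the A to D plexins, NRP1 and NRP2, the SLIT, ROBO, netrin and UNC5 families, DCC, the EPH receptors and the ephrins. This gave 69 of 20163 protein-coding genes.

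Binding sites of SF-1 (steroidogenic factor-1, NR5A1), a nuclear receptor that controls adrenal and gonadal steroid genes, were mapped by ChIP-seq, in which DNA bound by a protein is pulled down with an antibody and sequenced. All chromatin came from H295R/TR SF-1, a cell line derived as a subclone from the human adrenocortical tumor line H295R with SF-1 inducible by doxycycline. Cells kept without doxycycline had basal SF-1, and 3 days of doxycycline gave overexpressed SF-1. Chromatin of either dosage was precipitated with a Millipore and with a Perseus antibody against SF-1, and the 3 libraries of a combination were pooled into 1 peak list, with 2 libraries of input DNA as control. The work therefore rests on 1 subclone and on 1 list per combination, doxycycline itself cannot be told apart from the SF-1 it induces, and no replicate error or p-value can be given. Peak lists hold no expression values, so neither the labelled cell type nor expression of the members could be checked. The lists held 4393 peaks for basal SF-1 with Millipore, 11910 for overexpressed SF-1 with Millipore, 6616 for basal SF-1 with Perseus and 7453 for overexpressed SF-1 with Perseus. Read depth was not given, and the median peak was 149 bp wide in every list. A peak was assigned to a gene when its centre lay within 1, 10 or 100 kb of the outermost start of that gene, so a peak can belong to several genes. Each list also numbers its peaks from 1, and this rank is used here as an order within the list.

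The sequences that carry the main findings are printed first, from the GRCh37 reference (the hg19 build), 5′ to 3′ on the strand on which the match reads. Among peaks near members in the basal Millipore list, the 2 best-ranked both held a match to the consensus of NRSF/REST, a repressor that silences neuronal genes in other cell types, with up to 4 mismatches allowed at its 20 fixed positions of 21. Ranks 24 and 29 lay in an intron of UNC5A, a netrin receptor, and in an intron of EPHA10, an EPH receptor without kinase activity. Capitals mark the match, which had 1 mismatch at UNC5A on chr5:176264748-176264818 (plus strand) and 2 mismatches at EPHA10 on chr1:38230104-38230174 (plus strand).
UNC5A intron: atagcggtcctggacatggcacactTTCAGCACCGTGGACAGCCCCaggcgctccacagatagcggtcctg
EPHA10 intron: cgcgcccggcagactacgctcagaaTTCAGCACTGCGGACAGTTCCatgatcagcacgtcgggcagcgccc

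The SF-1 consensus was searched on both strands as a C or T, then CAAGG, a C or T, a C and an A or G. The stretches below were chosen because their peaks recurred in several lists or lay within 10 kb of a member's start, and capitals mark the consensus. The first lies in an intron of LMNA upstream of SEMA4A and was called in all 4 lists. The EPHB2 intron site was called in 3 lists. The SEMA7A upstream and EPHB2 stretches each hold the consensus at 2 places.
SEMA4A, chr1:156092556-156092614, minus strand: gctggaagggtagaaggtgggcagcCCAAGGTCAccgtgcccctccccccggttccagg
SEMA4B intron, chr15:90703964-90704022, plus strand: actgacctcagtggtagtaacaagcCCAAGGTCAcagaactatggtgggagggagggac
SEMA7A intron, chr15:74724851-74724909, minus strand: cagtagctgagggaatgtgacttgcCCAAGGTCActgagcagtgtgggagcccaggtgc
SEMA7A upstream, chr15:74734514-74734602, plus strand: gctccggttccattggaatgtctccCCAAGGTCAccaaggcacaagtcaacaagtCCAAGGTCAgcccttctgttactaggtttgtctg
PLXND1 upstream, chr3:129335506-129335564, minus strand: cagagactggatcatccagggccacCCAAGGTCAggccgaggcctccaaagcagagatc
SLIT1 intron, chr10:98943897-98943955, minus strand: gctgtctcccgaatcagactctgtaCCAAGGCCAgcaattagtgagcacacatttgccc
NTN5 upstream, chr19:49178738-49178796, minus strand: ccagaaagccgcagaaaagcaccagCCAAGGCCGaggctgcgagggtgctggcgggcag
EPHB2 intron, chr1:23117431-23117546, minus strand: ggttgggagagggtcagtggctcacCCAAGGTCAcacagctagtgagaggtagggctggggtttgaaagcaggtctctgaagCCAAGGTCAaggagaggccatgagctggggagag
EFNA2 intron, chr19:1286967-1287025, plus strand: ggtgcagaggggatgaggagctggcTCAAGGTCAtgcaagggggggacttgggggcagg

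The first question was whether SF-1 peaks lay near these genes more often than near other genes. At 100 kb, 29 of the 69 members (42.0%) had a peak in the basal Millipore list, against 30.7% of all protein-coding genes. In the overexpressed Millipore list 50 members (72.5%) had one, against 61.5% of all genes. With Perseus the counts were 32 members (46.4%) at basal SF-1 and 35 (50.7%) at overexpressed SF-1, against 47.2% and 51.2% of all genes. At 10 kb, 5 and 23 members had a Millipore peak at basal and overexpressed SF-1, where all genes gave 4.38% and 19.0%, and 8 and 13 members had a Perseus peak, where all genes gave 15.5% and 17.1%. At 1 kb the counts were 2 and 10 members with Millipore, against 1.02% and 8.19% of all genes, and 6 and 7 members with Perseus, against 9.56% and 10.5%. Counting any list, 17 members (24.6%) had a peak within 1 kb and 31 (44.9%) within 10 kb, where all genes gave 19.8% and 35.2%.

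The members' promoters were richer in G and C than those of all genes, with a median of 61.9% against 55.0% over 1 kb on each side of the start, and across all genes the number of peaks within 100 kb went with promoter GC (Spearman's rho 0.301, n = 20163 genes that share the lists). All genes were therefore reweighted to the members' promoter GC over 10 classes. The members' share divided by the reweighted share was then 1.25 at 100 kb in the basal Millipore list, with a 95% interval of 0.926 to 1.602, and 1.06 (0.892 to 1.19) in the overexpressed Millipore list. It was 0.899 (0.681 to 1.13) and 0.899 (0.695 to 1.10) in the basal and overexpressed Perseus lists. At 10 kb the ratios were 1.43 (0.620 to 3.14), 1.37 (0.962 to 1.86), 0.631 (0.326 to 1.16) and 0.916 (0.552 to 1.44) in the same order, and at 1 kb 2.96 (0.817 to 10.2), 1.46 (0.812 to 2.48), 0.770 (0.358 to 1.57) and 0.807 (0.398 to 1.55). All 12 intervals include 1, so at this number of members no difference from genes of like promoter GC could be detected in the full lists. In lists cut to the same length, however, the overexpressed Millipore ratio was 2.05 at 10 kb and 1.24 at 100 kb. Those values lie above the intervals of the full list, and no interval is given for them. All 6 Millipore ratios lay above 1 and all 6 Perseus ratios below 1, but the overexpressed Perseus ratio at 10 kb was 1.12 when any transcript start was used in place of the outermost one. These intervals cover counting error over genes only and treat genes as independent. Counting any list, the reweighted shares were 23.6% within 1 kb and 41.5% within 10 kb, where the members had 24.6% and 44.9%.

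**Figure D1:**
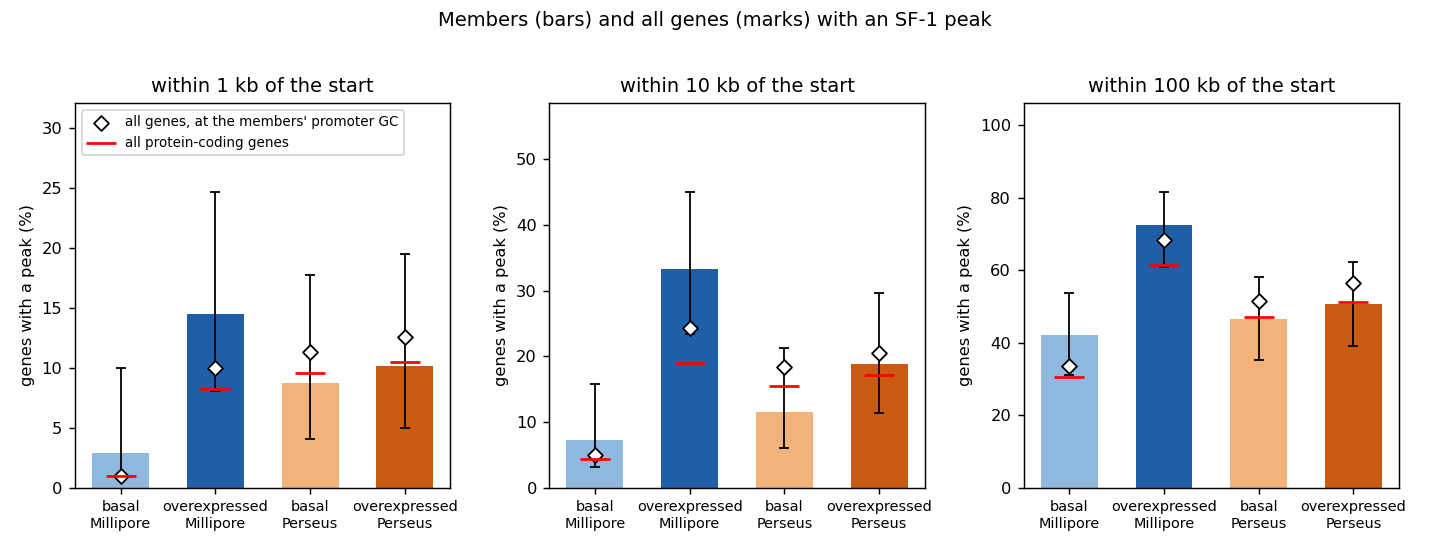
Share of genes with an SF-1 peak within 1, 10 and 100 kb of the start (y axis, percent) in each of the 4 peak lists (x axis). Bars are the 69 members with 95% Wilson intervals, red lines all 20163 protein-coding genes and diamonds all genes at the members' promoter GC, and every diamond lies within the interval of its bar.

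Summed over the lists, the members had 436 peak assignments within 100 kb. They were spread unevenly over the roles, with 164 at the 20 semaphorins, 122 at the 8 ephrins, 48 at the 11 plexins and neuropilins, 44 at the 14 EPH receptors, 41 at the 9 netrins, DCC and UNC5 receptors, and 17 at the 7 SLIT and ROBO genes. The median member of each role had 13 for the ephrins, 6.5 for the semaphorins, 4 for the plexins and neuropilins, 3.5 for the EPH receptors, 2 for the netrin group and 1 for SLIT and ROBO. The ephrin values count some peaks more than once, because EFNA1, EFNA3 and EFNA4 lie close together. They had 20, 28 and 27 assignments, and the distinct peaks of their locus are given below. EFNA2 had 36, and EFNA5, EFNB1, EFNB2 and EFNB3 had 0, 1, 4 and 6. The 10 members with the most peaks held 52.8% of the assignments, close to the 49.0% held by the same fraction of all genes. The median was 4 peaks per member and 3 per gene. In all 4 lists 14 members had a peak (20.3% of the members, where 15.1% of all genes did and 19.1% at the members' promoter GC). No peak in any list was found for 8 members (11.6%, where 20.1% of all genes had none and 16.1% at the members' promoter GC).

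**Figure D2:**
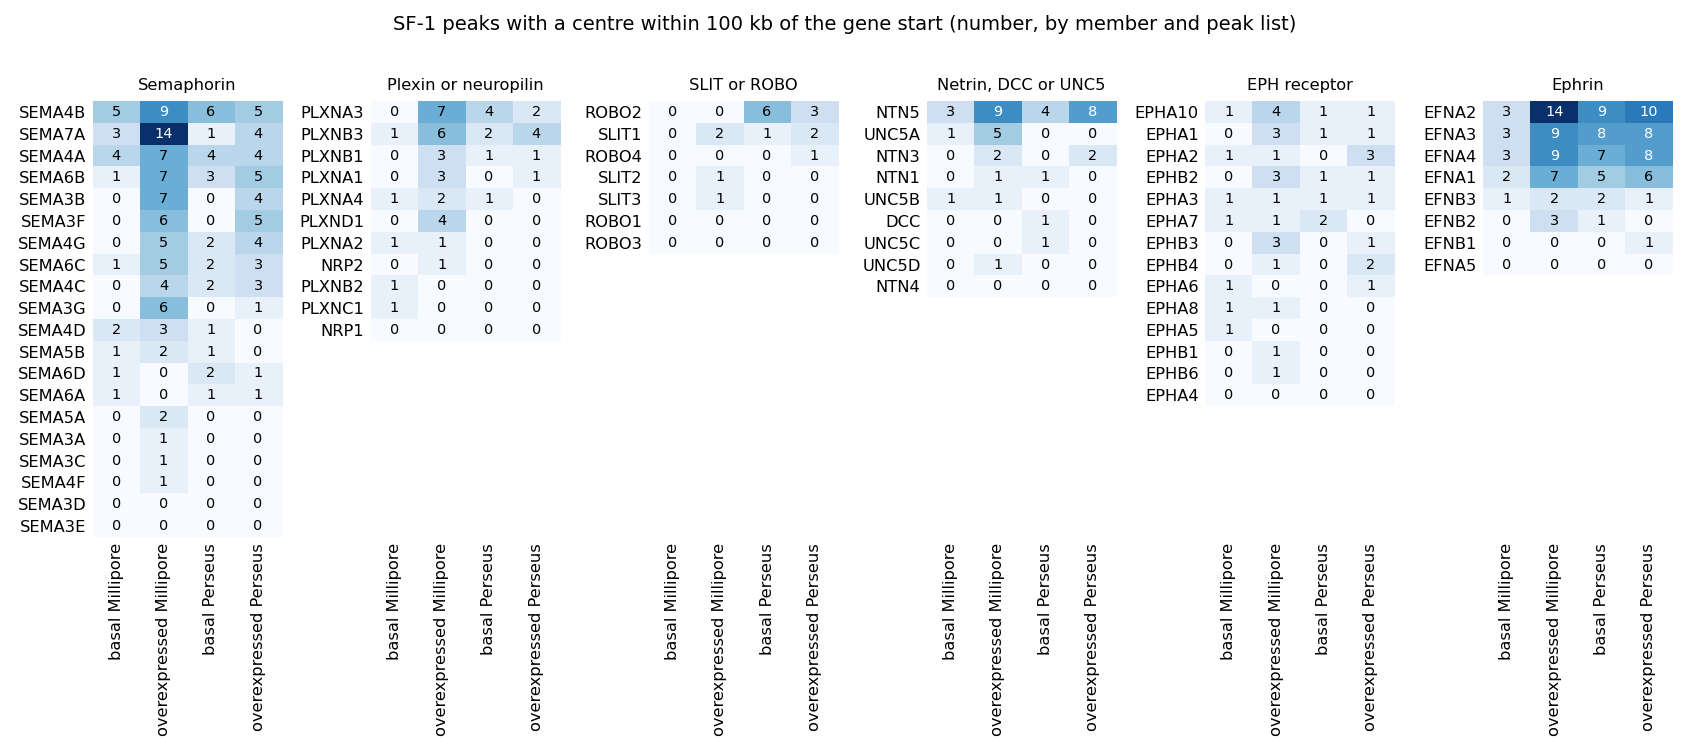
Number of SF-1 peaks with a centre within 100 kb of the start of each of the 69 members (rows, grouped by role and ordered by their sum) in the 4 peak lists (columns), with darker cells for higher numbers. Ephrins EFNA1 to EFNA4, the netrin NTN5 and a few semaphorins hold high numbers, and EFNA2 and SEMA7A reach 14 in the overexpressed Millipore list.

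Among the semaphorins, SEMA4B, a transmembrane semaphorin, had 5, 9, 6 and 5 peaks within 100 kb in the basal Millipore, overexpressed Millipore, basal Perseus and overexpressed Perseus lists. In that order, which holds for all counts of 4 below, SEMA4A had 4, 7, 4 and 4, SEMA6B had 1, 7, 3 and 5, and SEMA6C had 1, 5, 2 and 3. These 4 genes and SEMA7A were the semaphorins with a peak in every list. SEMA7A, a lipid-anchored semaphorin, had 3, 14, 1 and 4 peaks. The start of SEMA7A lies 66.3 kb from that of CYP11A1, the enzyme of the first step of steroid synthesis, and all of the SEMA7A peaks also lay within 100 kb of the CYP11A1 start. SEMA3B and SEMA3F, secreted semaphorins whose starts are 113 kb apart on chromosome 3, had 0, 7, 0 and 4 and 0, 6, 0 and 5 peaks. Together they had 10 distinct peaks at overexpressed SF-1 with Millipore and 6 with Perseus, and none at basal SF-1 with either antibody. SEMA3D and SEMA3E were the semaphorins without any peak.

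Among the receptors for semaphorins, PLXNB3 had 1, 6, 2 and 4 peaks and PLXNA3 had 0, 7, 4 and 2. These X-linked plexins stood apart from the other plexins and neuropilins, none of which had more than 4 in a list. NRP1, the co-receptor of class 3 semaphorins and of VEGF, had no peak, and NRP2 had 1, in the overexpressed Millipore list. In the SLIT and ROBO group, ROBO1 and ROBO3 had no peak, SLIT2 and SLIT3 had 1 each, and none of the 7 genes had one in the basal Millipore list. ROBO2 had 6 and 3 peaks in the Perseus lists and none with Millipore. Of these 9 peaks 8 lay upstream of the outermost ROBO2 start, between 41096 and 81521 bp away, and none held the SF-1 consensus. Among netrins and their receptors, NTN5 had 3, 9, 4 and 8 peaks and UNC5A 1, 5, 0 and 0, while NTN4 had none.

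The EPH receptors had few peaks. EPHA10 had 1, 4, 1 and 1, EPHA3 had 1 in every list, and no EPH receptor had more than 4 in a list. EPHA4 had none. Their ligands stood at the other end of the range. EFNA2 had 3, 14, 9 and 10 peaks, the most of the 69 members. It has 7 other protein-coding starts within 100 kb, and its peaks include ones nearer to those genes. The EFNA2 site called in all 4 lists, for example, lay 98078 bp from its start and 424 bp from that of NDUFS7. EFNA3 had 3, 9, 8 and 8, EFNA4 had 3, 9, 7 and 8, and EFNA1 had 2, 7, 5 and 6, but these genes lie together on chromosome 1, with 15.1 kb between the starts of EFNA4 and EFNA3 and 49.0 kb between those of EFNA3 and EFNA1. Counted once, the EFNA1, EFNA3 and EFNA4 locus had 3, 11, 9 and 9 distinct peaks. The transmembrane ephrins had fewer: EFNB3 had 1, 2, 2 and 1, EFNB2 0, 3, 1 and 0, and EFNB1 a single peak in the overexpressed Perseus list. EFNA5, the ephrin with the longest gene body, had none.

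Within 1 kb of a start, EPHA10 was the member with a Millipore peak at both dosages. The peak at chr1:38229901-38230349 lay 680 bp inside the gene, held the NRSF/REST match printed above, and ranked 29 at basal and 59 at overexpressed SF-1. No Perseus peak overlapped it. EFNA4 had a peak 763 bp upstream at chr1:155035351-155035549 in both Perseus lists, with ranks 754 and 406, and an overlapping one at rank 8512 of the overexpressed Millipore list. The SEMA6A start had a peak 81 bp upstream in both Perseus lists, at ranks 4508 and 6067, and EFNA1 one 948 bp inside the gene at ranks 3537 and 5583. EFNB2 had peaks 840 bp upstream in the overexpressed Millipore list and 790 bp upstream in the basal Perseus list that overlapped. SEMA4B had a basal Millipore peak 564 bp and a basal Perseus peak 114 bp inside the gene, and the latter held the SF-1 consensus printed above. SEMA3F had an overexpressed Millipore peak 478 bp upstream and an overexpressed Perseus peak 197 bp downstream of its start.

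The remaining members with a peak within 1 kb had it in a single list. In the overexpressed Millipore list these were SEMA6B at 262 bp and EFNB3 at 370 bp upstream, EPHA1 at 551 bp upstream, and SEMA7A at 274 bp, SLIT2 at 772 bp and PLXND1 at 794 bp downstream. EPHA7 had a basal Perseus peak 20 bp upstream of its start. EPHA6 (525 bp upstream), EFNB1 (336 bp downstream) and SEMA4G (939 bp downstream) had one in the overexpressed Perseus list. The SF-1 consensus was present in the 2 kb around the start of 22 members (31.9%), against 18.1% of all genes and 19.9% of genes at the members' promoter GC. Of these 22 members 8 (36.4%) had a peak within 1 kb in some list, as did 9 of the 47 members without it (19.1%). Among all genes the shares were 31.0% with the consensus and 17.3% without it. In the positions plot the peaks within 10 kb lay on both sides of the start, with 17 upstream and 17 downstream in the overexpressed Millipore list.

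**Figure D3:**
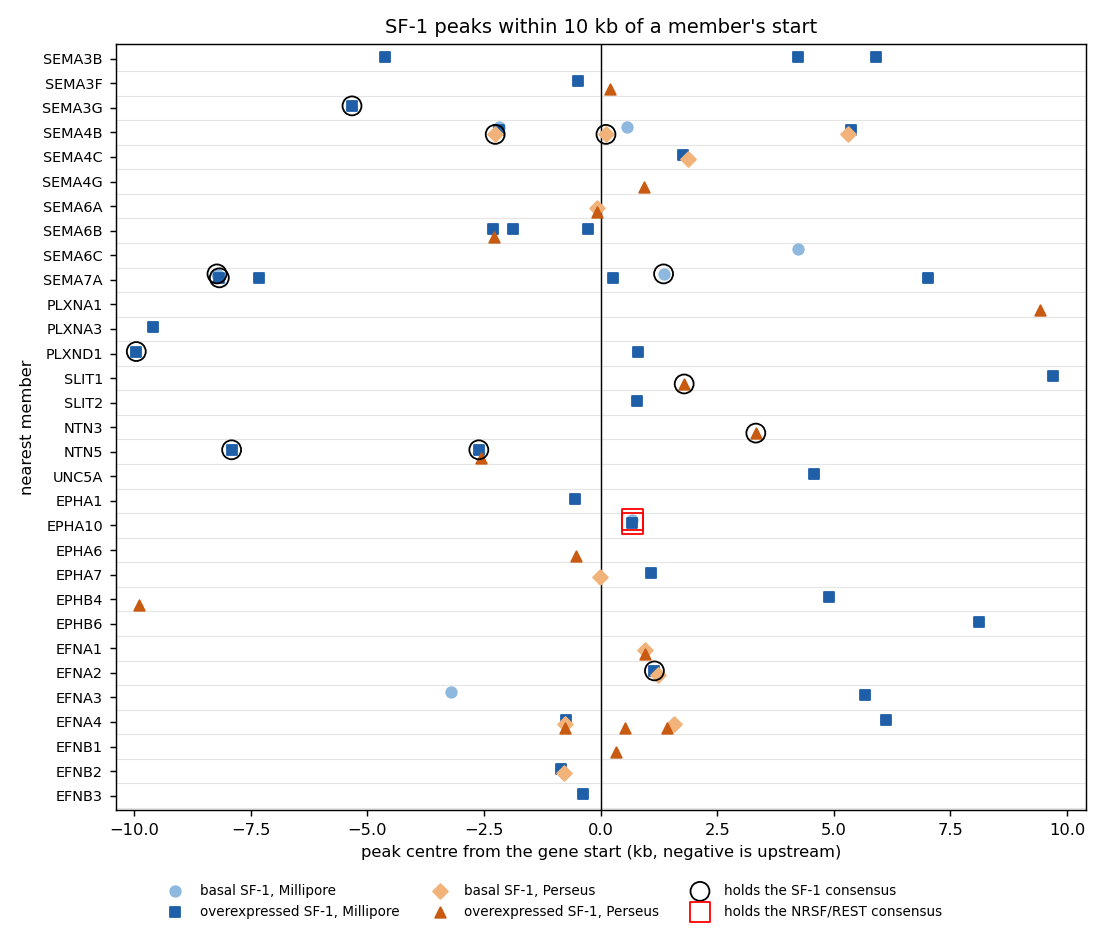
Position of each SF-1 peak centre within 10 kb of a member's start (x axis, kb, negative is upstream) for the 31 members with such a peak (y axis), with colour and shape for the peak list. Black circles mark peaks with the SF-1 consensus and red squares those with the NRSF/REST consensus, which appear at EPHA10 alone in this window.

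The second question was how SF-1 dosage changed the peaks at these genes. With Millipore, 43 peaks lay within 100 kb of a member at basal SF-1 and 176 at overexpressed SF-1, which is 0.979% and 1.48% of the lists. The difference was 0.499 percentage points, with a 95% interval of 0.106 to 0.842. The number of member peaks thus rose 4.09-fold in a list that was 2.71 times as long. With Perseus 74 and 93 peaks gave 1.12% and 1.25%, a difference of 0.129 points (-0.234 to 0.488), with 1.26 times as many member peaks in a list 1.13 times as long. The odds ratios of overexpressed to basal SF-1 were 1.52 (1.09 to 2.12) and 1.12 (0.822 to 1.52). Their ratio of 1.36 had an interval of 0.862 to 2.14, so a difference between the antibodies was not shown. The Millipore rise was no larger than that of other genes: peaks per gene within 100 kb went from 0.696 to 2.81 for the members, a factor of 4.04, from 0.421 to 1.71 for all genes, a factor of 4.05, and by a factor of 4.66 for genes at the members' promoter GC. With Perseus the factors were 1.28, 1.19 and 1.23. These intervals treat peaks as independent and say nothing of the spread between cultures.

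Member by member, 27 had a Millipore peak within 100 kb at overexpressed SF-1 only, where 38.2% of all genes did, 6 at basal SF-1 only (all genes 7.32%) and 23 at both (all genes 23.3%). More peaks at overexpressed SF-1 were counted for 44 members (all genes 53.7%) and fewer for 6 (all genes 8.72%). With Perseus 11 members had a peak at overexpressed SF-1 only (all genes 15.4%), 8 at basal SF-1 only (all genes 11.4%) and 24 at both (all genes 35.8%), with more peaks for 22 (all genes 29.0%) and fewer for 13 (all genes 20.2%). With both antibodies, 7 members had peaks at overexpressed SF-1 only (10.1%, against 7.32% of all genes and 7.75% at the members' promoter GC). These were the secreted semaphorins SEMA3B, SEMA3F and SEMA3G, the plexin PLXNA1, the netrin NTN3 and the receptors EPHB3 and EPHB4. No member had peaks at basal SF-1 only with both antibodies (all genes 1.28%). Counts were higher at overexpressed SF-1 with both antibodies for 18 members (26.1%, against 20.2% of all genes and 24.7% at the members' promoter GC). Among these were EFNA2, EFNA1, EFNA4, NTN5, PLXNB3, SEMA6B, SEMA6C and SEMA7A. Other members with many peaks were not among them, since with Perseus SEMA4A and EFNA3 had equal counts at both dosages and SEMA4B and PLXNA3 had fewer at overexpressed SF-1. Counts were lower with both for SEMA6D (1, 0, 2 and 1), where 2.03% of all genes were, and 9 members moved in opposite directions with the 2 antibodies (all genes 14.5%). In lists cut to the same length, 17 members had a Millipore peak at overexpressed SF-1 only and 10 at basal SF-1 only. With Perseus the counts in such lists were 9 and 8. No share of all genes is given for the cut lists, so these counts cannot be set against other genes. The lists differ in length, and its part in the counts above was not tested further.

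The third question was how often a site near a member was called again. Of the 43 basal Millipore member peaks 10 (23.3%, 95% interval 13.2 to 37.7) shared at least 1 bp with an overexpressed Millipore peak, where 12.4% of all basal Millipore peaks did. Of the 74 basal Perseus member peaks 28 (37.8%, 27.6 to 49.2) overlapped one of the overexpressed Perseus list, where 29.5% of all did. Between antibodies, 7 of 43 basal Millipore member peaks (16.3%, all peaks 11.6%) met a basal Perseus peak, and 28 of 176 overexpressed Millipore member peaks (15.9%, 11.2 to 22.0, all peaks 11.5%) met an overexpressed Perseus peak. Seen from the other list, 5.68% of overexpressed Millipore and 30.1% of overexpressed Perseus member peaks met a basal peak of the same antibody. Likewise 9.46% of basal Perseus and 30.1% (21.7 to 40.1) of overexpressed Perseus member peaks met a Millipore peak at the same dosage, the last against 18.5% of all overexpressed Perseus peaks. Most sites near members were thus called with 1 antibody at 1 dosage.

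Merged over the lists, the member peaks formed 305 sites, of which 245 were called in 1 list, 44 in 2, 11 in 3 and 5 in all 4. The SF-1 consensus was found in 24 of 245 sites of 1 list (9.80%), in 12 of 44 of 2 lists (27.3%), in 5 of 11 of 3 lists (45.5%) and in 2 of the 5 sites of all lists. Over all 25693 sites of the 4 lists, 86.2% were called in 1 list, 10.3% in 2, 2.78% in 3 and 0.669% in 4, and the consensus was found in 10.1%, 28.4%, 46.6% and 68.6% of them. For the members the shares of sites were 80.3%, 14.4%, 3.61% and 1.64%. Sites of more lists were also wider, with a median width near members of 149, 249, 349 and 449 bp, and the part of width in these shares was not tested.

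**Figure D4:**
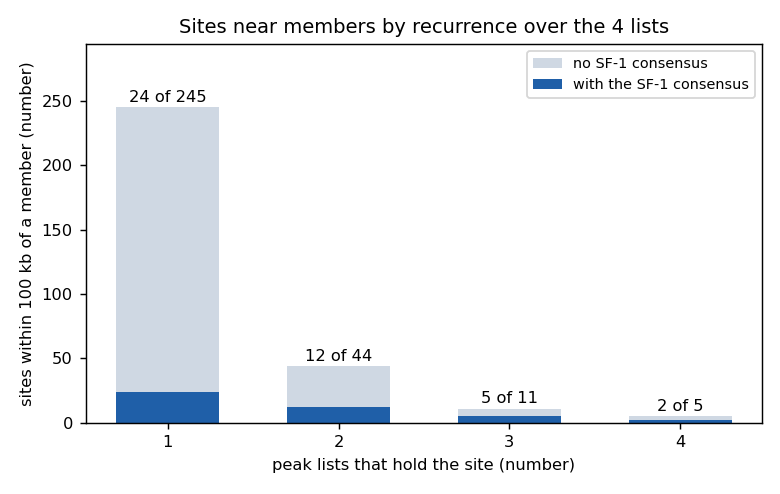
Number of sites within 100 kb of a member (y axis) by the number of peak lists that hold them (x axis), with the part holding the SF-1 consensus in dark blue. Of 245 sites in 1 list 24 hold the consensus, against 7 of the 16 sites in 3 or 4 lists.

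None of the 5 sites called in all lists lay within 10 kb of a member's start. The site with the best ranks, chr1:156186051-156186799, was in an intron of PMF1, a kinetochore gene, 69268 bp from the SEMA4A start and 3641 bp from that of PMF1. It ranked 1386, 1, 10 and 8 in the lists and held no SF-1 consensus. The site in an intron of LMNA, the nuclear lamina gene, at chr1:156092401-156092849 was 24532 bp upstream of SEMA4A, the nearest protein-coding start, ranked 145, 8288, 2230 and 127, and held the consensus printed above. Another one with the consensus, chr15:90773551-90773949 in CIB1, lay 69914 bp from SEMA4B. The others were chr19:1383651-1384249 at NDUFS7, 98078 bp from EFNA2, and chr19:4523451-4523799 in PLIN5, a lipid droplet gene, 58163 bp from SEMA6B. Sites in 3 lists that lay at a member itself included the EFNA4 site 763 bp upstream of the start and the EPHB2 intron at chr1:23117351-23117649, 80168 bp inside the gene with ranks 7331, 4599 and 4856 in all but the basal Millipore list. EPHB2 encodes a receptor for transmembrane ephrins.

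Many member peaks were nearer to another gene. Joint genes of the annotation that include a member, such as EFNA4-EFNA3 and ARHGAP19-SLIT1, counted as another gene. The EFNA4-EFNA3 start, for example, was the nearest to a peak 512 bp inside EFNA4. The nearest protein-coding start was a member's own for 27 of 43 basal Millipore member peaks (62.8%), 77 of 176 overexpressed Millipore (43.8%), 27 of 74 basal Perseus (36.5%) and 25 of 93 overexpressed Perseus ones (26.9%). Per assignment of a peak to a gene, the gene was the nearest in 56.2%, 39.7%, 31.8% and 22.9% for the members, against 31.2%, 26.1%, 26.0% and 25.4% for all genes. The share was above that of all genes in both Millipore lists and the basal Perseus list and below it in the overexpressed Perseus list. These differences were not tested. Introns held 19, 73, 23 and 33 of the member peaks and intergenic DNA 16, 44, 24 and 21. Coding exons held 2, 19, 3 and 9. No shares over all peaks of the lists are given for these places. The median rank of all member peaks lay at 37.3%, 47.4%, 47.9% and 49.9% of the list, where 50% is the middle.

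The number of peaks a member had went with the number of genes around it. The members had a median of 1 other protein-coding start within 100 kb and a gene length of 69.1 kb, against 3 starts and 27.2 kb for all genes. Across members, peaks summed over the lists correlated with neighbouring starts at Spearman's rho 0.666 (n = 69), and with gene length at -0.534. Across all genes the values were 0.385 and -0.131. The correlations are descriptions across genes, which are not independent and share the lists. The 37 members with at most 1 neighbouring start had a median of 1 peak and 7 of them had none, whereas the 32 members with more had a median of 8 and 1 of them, ROBO3, had none. Among all genes the same split gave medians of 1 and 3, and 31.1% and 14.7% of genes without a peak, against 18.9% and 3.12% of the members. Exceptions stood on either side: SEMA7A had 22 peaks with 2 neighbouring starts and ROBO2 had 9 with 0, while NTN3 had 4 with 9. Whether gene density plays a part in the ephrin and semaphorin numbers was not tested.

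**Figure D5:**
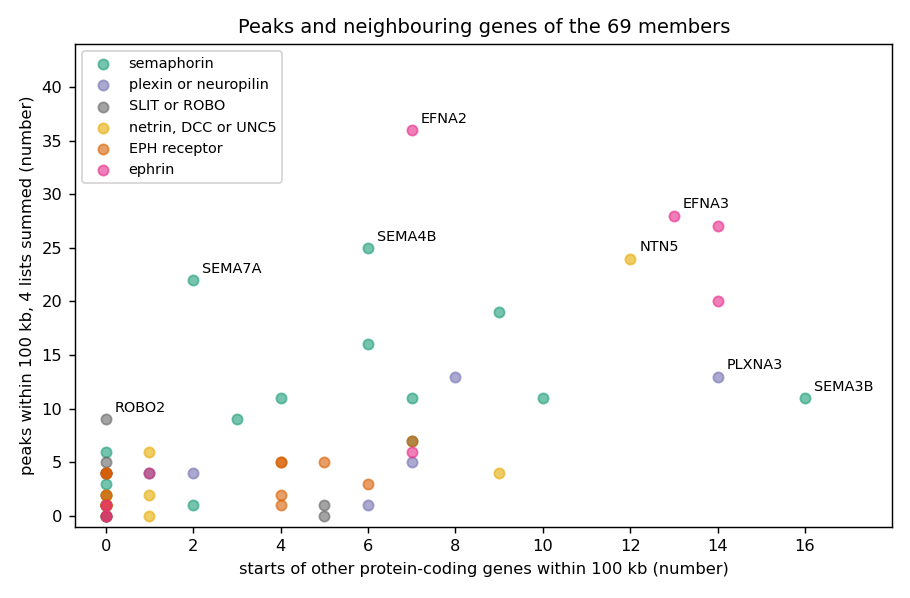
Peaks within 100 kb summed over the 4 lists (y axis) against the number of starts of other protein-coding genes within 100 kb (x axis) for the 69 members, coloured by role, some points lying on each other. Members with 0 or 1 neighbour have fewer than 10 peaks, and EFNA2, EFNA3, EFNA4, SEMA4B, NTN5 and SEMA7A have more than 20.

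The SF-1 consensus stood above its level in flanking DNA in every list. It was found in 7 of 43 (16.3%), 27 of 176 (15.3%), 14 of 74 (18.9%) and 15 of 93 (16.1%) member peaks, in the list order above. In windows of the same width 5 kb to each side it was found in 1.16%, 2.84%, 2.03% and 1.61%. The excess was 15.1 points (5.47 to 28.8), 12.5 (7.37 to 18.7), 16.9 (8.68 to 27.3) and 14.5 (7.71 to 23.4). Among all peaks of the lists the shares were 16.0%, 10.9%, 21.6% and 17.2%. Among peaks within 10 kb of a start, those with the consensus lay at SEMA7A, where a basal Millipore peak of rank 108 was 1349 bp inside the gene and a peak 8226 bp upstream recurred in the overexpressed Millipore list, at SEMA4B, and at EFNA2, where a peak 1153 bp inside the gene overlapped a basal Perseus one. Overexpressed Millipore peaks with the consensus lay 2612 and 7912 bp upstream of NTN5, 5331 bp upstream of SEMA3G and 9956 bp upstream of PLXND1, and overexpressed Perseus peaks 1791 bp inside SLIT1 and 3327 bp from the NTN3 start, where TBC1D24 was nearer.

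The NRSF/REST consensus was found in 2 of 43 basal Millipore member peaks (4.65%) and in the same 2 sites at overexpressed SF-1 (2 of 176, 1.14%), those of UNC5A and EPHA10. Over the whole lists it was found in 1.05% and 0.697% of peaks. No Perseus member peak held it (0 of 74 and 0 of 93), and 0.181% and 0.228% of all Perseus peaks did. The UNC5A peak at chr5:176264701-176264999 lay 27330 bp inside the gene and ranked 24 at basal and 1109 at overexpressed SF-1. Each of the 2 peaks held 2 matches, of which the one with fewer mismatches was printed. A match is a description of the sequence and does not show that NRSF/REST was bound.

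Further genes of these pathways, 35 co-receptors, other guidance factors and intracellular mediators such as NEO1, L1CAM, the SRGAP, MICAL, DPYSL and ABLIM families, had a peak within 100 kb for 11, 22, 16 and 19 of 35 genes. This is 31.4%, 62.9%, 45.7% and 54.3%, near the shares of all genes given above for the same lists. Within 10 kb the counts were 3, 5, 4 and 7, or 8.57%, 14.3%, 11.4% and 20%, against 4.38%, 19.0%, 15.5% and 17.1% of all genes. Within 1 kb they were 1, 2, 1 and 4, or 2.86%, 5.71%, 2.86% and 11.4%, against 1.02%, 8.19%, 9.56% and 10.5%. NTNG2, a membrane-anchored netrin, had 1, 5, 2 and 5 peaks within 10 kb, the most of these genes in the 4 lists summed, and was singled out after its values were seen.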

How the data were processed

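SF-1 ChIP-seq peak lists of 4 combinations of dosage and antibody were analysed. The authors aligned reads to hg19 (ELAND v2), and SeqPeak of CisGenome v2 called peaks on pooled libraries against input (CASAVA 1.6 is named in the submitters' processing notes). The deposited columns hold the position of each peak, its rank and a score of 1000 in every row, which carries no measurement. What the authors ranked on is not given in the sources used here. Starts fall on a grid of 50 bp.

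Peak centres were compared with outermost gene starts of GENCODE 44 on GRCh37 over 24 chromosomes, with Python 3.11.15, pandas 2.3.3, scipy 1.17.1 and pysam 0.24.0. Wilson and Newcombe intervals (95%) cover counting error only, and depth is unknown. No test between groups was possible with 1 list each. Counting was tested on simulated peaks. Members and gene lists were chosen with earlier results of these data known. Named were the members with a peak within 1 kb in any list or within 100 kb in all lists, the 10 with the most peaks, those without any, the 2 best-ranked peaks per list, peaks in 3 or more lists and peaks within 10 kb with the SF-1 consensus, and any other gene was named after its values were seen. A few sites and sequences that fit these rules are not reported here. Alternatives covered starts, peak edges, rank, list length, GC classes, overlap and motif. SEMA7A left out and 1 member per group of starts within 200 kb were chosen after the data were seen.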

Additional observations from a re-analysis of the deposited data

Results flagged for a closer look

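For 9 members the number of peaks within 100 kb changed in opposite directions with the 2 antibodies, where 14.5% of all genes did so. With 1 list per combination the difference was not tested. The change from basal to overexpressed SF-1 with Millipore minus that with Perseus was 9 peaks for PLXNA3, 5 for SEMA4B and 4 for EFNB2. It was 2 peaks for EFNB3, NTN1, PLXNA4, SEMA4D and SEMA5B, each with 1 more peak with Millipore and 1 fewer with Perseus, and -2 for EPHA6, which lost its Millipore peak and gained a Perseus one.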

How the results depend on the processing

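Of 236 values under alternative settings, 213 stayed within 1 SD or 95% interval of the reported one, or within 1.5 times for a count. The other 23 are given here. In lists cut to the same length, the ratio to genes of like promoter GC in the overexpressed Millipore list was 2.05 at 10 kb and 1.24 at 100 kb. That of the overexpressed Perseus list at 10 kb was 0.515. In the cut lists 17 members gained and 10 lost all Millipore peaks, and no share of all genes is given for these counts. In the better-ranked 50% of the overexpressed Perseus list the ratio was 0.373 at 1 kb and 0.469 at 10 kb. With any transcript start, the overexpressed Perseus ratio at 10 kb was 1.12, within its interval but above 1, and the share of peaks within 100 kb of a member was 1.37% in the basal and 1.75% in the overexpressed Millipore list. With an overlap of at least 50% of both peaks, the shares found again were 11.6% (basal in overexpressed Millipore), 27.0% (basal in overexpressed Perseus), 2.33% (basal Millipore in basal Perseus) and 8.52% (overexpressed Millipore in overexpressed Perseus), and the last was 22.7% with centres within 500 bp. Against other peaks of the list, the excess of the SF-1 consensus was 0.325 points (-7.91 to 14.1) and 4.54 (-0.0711 to 10.6) in the basal and overexpressed Millipore lists. It was -2.74 (-10.1 to 7.67) and -1.11 (-7.28 to 7.72) in the basal and overexpressed Perseus lists, so for the consensus no difference from other peaks was shown in any list. With the core half-site AGGTCA in place of the consensus, the excess over flanking windows was 2.56, 1.35 and -5.38 points in the overexpressed Millipore, basal Perseus and overexpressed Perseus lists. Overexpressed Perseus member peaks held the half-site in 11.8%, against 20.5% of other peaks of the list. The difference was -8.66 points (-13.8 to -0.489). In the basal Millipore, overexpressed Millipore and basal Perseus lists it was 3.35 (-6.83 to 17.9), 0.0238 (-5.18 to 6.52) and -3.31 (-10.7 to 7.11). Within 10 kb, 1 member lost its Millipore peaks (1.45%, all genes 2.46%) and 5 their Perseus peaks (7.25%, all genes 7.10%). The cause was not tested. No paired analysis was possible because each group is 1 pooled list. Read depth is unknown, so a gene without a peak may have had too few reads for a call.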
